A study of Mus musculus with 6 samples.

Results

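Interleukin-1 and interleukin-18 are cytokines of one family, and each has a soluble inhibitor that is measured here. The genes described are Il1r1, the signalling receptor of interleukin-1, Il1rn, which encodes the interleukin-1 receptor antagonist, Il18, which encodes interleukin-18, and Il18bp, which encodes interleukin-18 binding protein. They were selected by gene symbol, and all 4 were present among the 8390 genes of the deposited liver table. The LV group was 3 livers of C57BL/6 mice, taken 4 h after 3e8 transducing units of a lentiviral vector (LV) had been given into a vein. Such a vector is a lentivirus-derived particle that delivers a gene and cannot replicate. The untreated group was 3 livers of C57BL/6 mice with no treatment. No group given a mock injection is among the 6 samples, so the vector and the injection cannot be told apart, and sex and age are not stated in the labels. RNA was taken from whole liver and sequenced, in 1 library per sample.

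The interleukin-1 receptor binds interleukin-1 alpha or beta, recruits the accessory chain Il1rap, and signals through Myd88 and the Irak kinases to NF-kB. The receptor antagonist occupies the receptor without recruiting the accessory chain and so blocks the signal. In the liver, interleukin-1 is a classic inducer of acute-phase genes in hepatocytes. Interleukin-18 is made as a precursor that an inflammasome protease matures, and it drives production of interferon gamma by T and NK cells. Interleukin-18 binding protein holds mature interleukin-18 in a complex that cannot reach its receptor, and interferon gamma is known to induce its gene.

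Values are whole numbers in the unit of the table, a score that appears from the values to be scaled by the authors for library size and transcript length. A fold change is the difference between LV and untreated means of log2(value + 1), tested with limma and adjusted by Benjamini-Hochberg over 8386 genes, and a gene is called when the adjusted p is under 0.05. The summed score ranged from 497295 to 526009 over the 6 libraries, and since it has been scaled, the read depth is unknown. LV replicate 3 and untreated replicate 2 stood apart from the other libraries. Elovl3, a male-biased liver gene, had 169 and 159 in this pair and at most 4 elsewhere, and the pair also lay apart on the second principal component, which held 24.1% of the variance. Ddx3y, a Y-linked gene, was listed at 0 in untreated replicate 3 and at 10 to 14 elsewhere. Of the cell type markers chosen for hepatocytes, all 10 were in the table and the label of liver was met by an Alb value of 41700 or more in every library. The labels do not say that the replicates were separate animals, and how much of the spread is technical is unknown. The p-values cover only the spread between these libraries, which includes the Elovl3 and Ddx3y differences above. In whole tissue, fewer cells of a type and less RNA per cell cannot be told apart.

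Of the 4 genes, 1 was called, Il18bp, which was higher in LV livers. The receptor Il1r1 and its antagonist Il1rn had larger fold changes but did not pass after adjustment. In 3 genes, Il1rn, Il1r1 and Il18bp, every LV value lay above every untreated value, and in Il18 the groups overlapped. Among all tested genes 3.76% were called higher and 0.87% lower, and 8.65% had every LV value above every untreated one. The median fold change over all tested genes was -0.07 on the log2 scale.

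**Figure D1:**
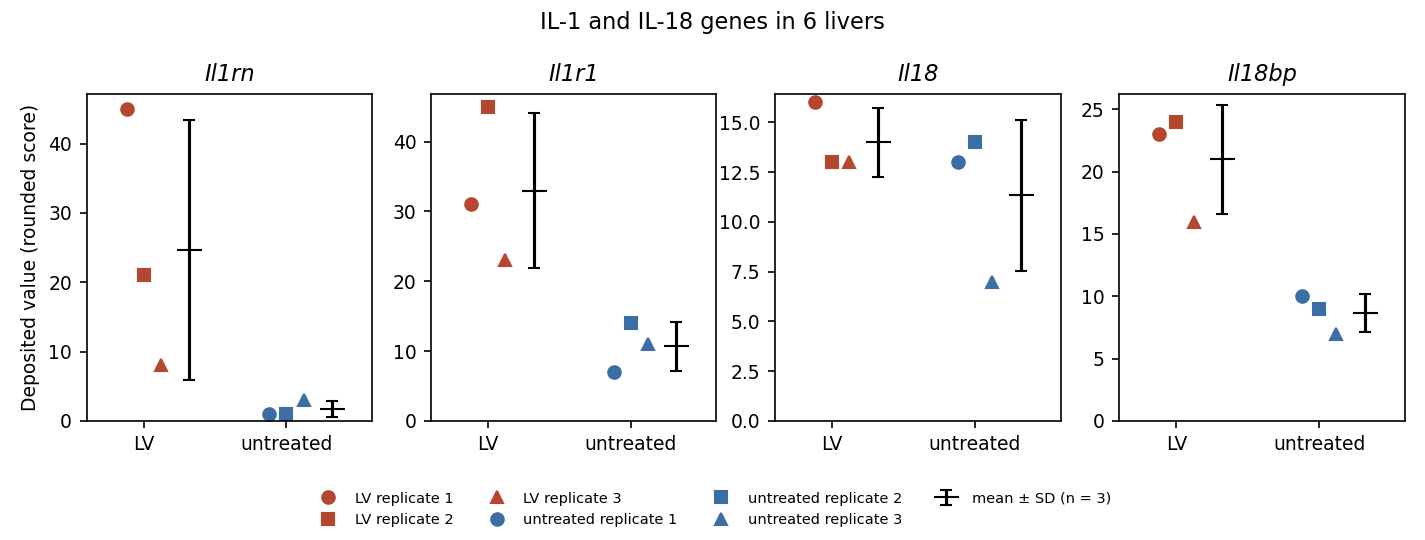
Deposited value (rounded score, linear axis from 0) of each gene in each LV and untreated liver, with the mean and SD of 3 libraries beside the points. Il1rn ranges from 8 to 45 in LV and from 1 to 3 in untreated livers, whereas Il18 spans 13 to 16 in LV and 7 to 14 in untreated livers.

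Il1r1, the receptor chain that carries the interleukin-1 signal, had values of 31, 45 and 23 in LV replicates 1, 2 and 3, against 7, 14 and 11 in untreated replicates 1, 2 and 3. All LV values were above all untreated ones, and LV replicate 3 was the lowest LV library. The mean was 33.0 ± 11.1 in LV and 10.7 ± 3.51 in untreated livers (SD, n = 3 each), a ratio of means of 3.09. On the log2 scale the difference was 1.54 ± 0.33 (SE, 95% interval 0.71 to 2.37), and limma gave an adjusted p of 0.0734. Of all tested genes 2.19% had a fold change as high or higher. The level of Il1r1 exceeded that of 78.8% of listed genes in LV livers and of 45.9% in untreated livers. In the reference annotation 6480 bases of Il1r1 are shared with Gm38070, an unclassified transcript on the same strand that was not among the rows.

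Il1rn, the receptor antagonist, had 45, 21 and 8 in LV replicates 1, 2 and 3, against 1, 1 and 3 in the untreated libraries. The groups did not overlap, but the LV values themselves differed 5.62-fold between the highest and the lowest library. The mean was 24.7 ± 18.8 in LV and 1.67 ± 1.15 in untreated livers (SD, n = 3 each), a ratio of means of 14.8. The fold change was 3.05 ± 0.65 on the log2 scale (SE, 95% interval 1.42 to 4.68), rank 55 from the top of all tested genes, and the adjusted p in limma was 0.0733. In untreated livers Il1rn lay above 1.5% of the listed genes and in LV livers above 72.5%. Only 51 listed genes had a 0 in any library, so the table seems to omit most genes of low value. The rule by which genes were listed is not stated. Il1rn may be listed only through its LV values, which would favour its rank and the separation of the groups. An untreated value of 1 can stand for any number that rounds to it. With every value moved by 0.5 against the difference, the fold change was 2.74 (adjusted p = 0.0914).

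Calls of this receptor and antagonist pair depended on the processing. Without LV replicate 3 the limma adjusted p of Il1rn was 0.0393 and that of Il1r1 0.0771. Leaving out any other single library gave 0.15 to 0.22 for Il1rn and 0.11 to 0.214 for Il1r1. Scaling the values by median of ratios gave adjusted p values of 0.0246 for Il1rn and 0.0233 for Il1r1 at fold changes of 3.08 and 1.59. Scaling to a common total gave 0.0282 and 0.0341, by upper quartile 0.0281 and 0.0306, and testing only genes with a mean of at least 5 gave 0.0365 and 0.0391. The direction was the same under all 17 alternatives for each gene.

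**Figure D2:**
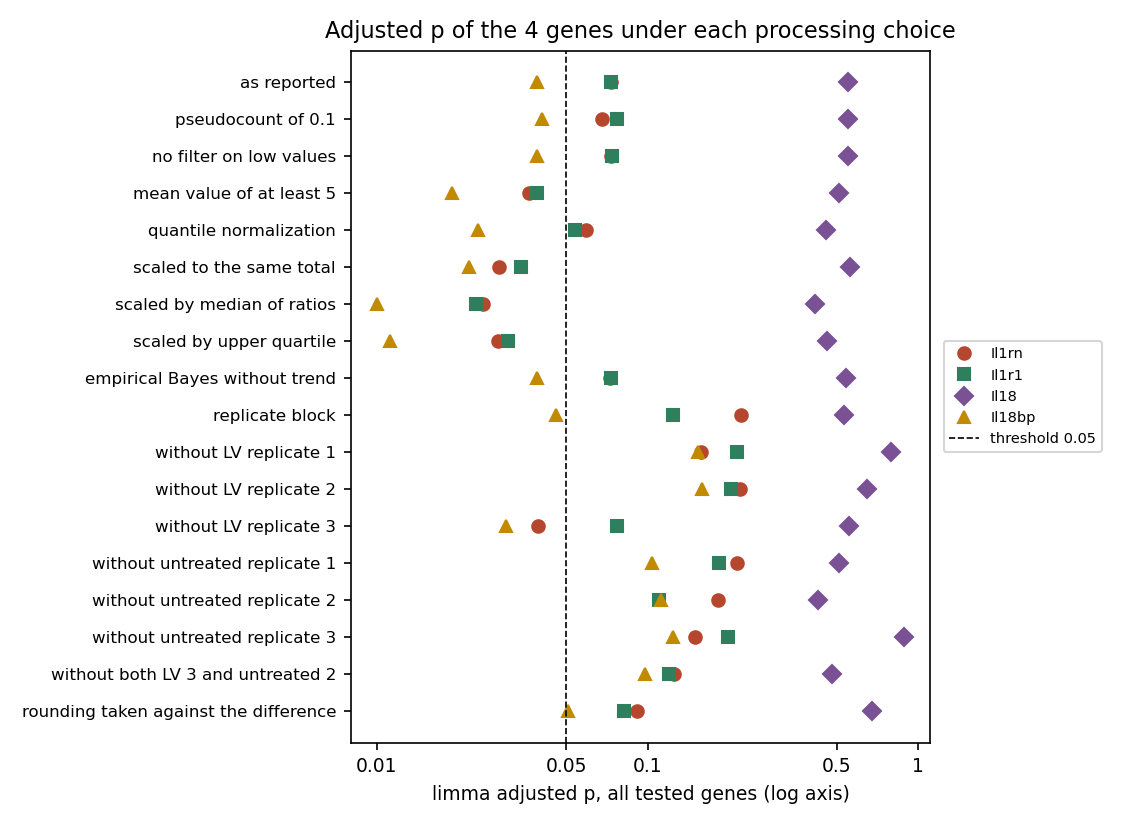
limma adjusted p (log axis) of each of the 4 genes under the reported processing and 17 alternatives, with the threshold of 0.05 as a dashed line. Il18bp ranges from 0.01 to 0.159 over the alternatives, Il1rn from 0.0246 to 0.222, Il1r1 from 0.0233 to 0.214, and Il18 lies at 0.416 or above.

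The promoters of Il1rn are shown because its fold change was the largest of the 4 genes. RefSeq places start sites of Il1rn in separate parts of chromosome 2, and the table gives a single value per gene, so which start was used is unknown. Each sequence is 300 bases, from 250 before to 50 after a start site, in the direction of the gene. They come from RefSeq on GRCm38.p6, not from the mm9 build of the table. Capitals mark matches on either strand to TTNNGNAA (C/EBP), GGNNNTTCC (NF-kB) or TGANTCA (AP-1), and capitals run together where matches overlap. A search for GAAANNGAA (interferon-stimulated response element core) and TTCNNNGAA (the gamma-activated site, GAS) found neither in these windows. The spellings of the NF-kB and response element motifs were set after a first search with longer ones had been seen, and the change altered which windows held NF-kB letters.
Il1rn upstream start, chr2:24336610-24336909, plus strand: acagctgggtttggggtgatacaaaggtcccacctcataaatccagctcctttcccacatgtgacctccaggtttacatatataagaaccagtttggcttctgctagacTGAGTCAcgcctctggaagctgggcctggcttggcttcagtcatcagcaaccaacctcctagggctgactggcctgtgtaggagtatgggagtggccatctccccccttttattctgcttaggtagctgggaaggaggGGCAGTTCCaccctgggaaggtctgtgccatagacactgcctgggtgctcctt
Il1rn downstream start, chr2:24345041-24345340, plus strand: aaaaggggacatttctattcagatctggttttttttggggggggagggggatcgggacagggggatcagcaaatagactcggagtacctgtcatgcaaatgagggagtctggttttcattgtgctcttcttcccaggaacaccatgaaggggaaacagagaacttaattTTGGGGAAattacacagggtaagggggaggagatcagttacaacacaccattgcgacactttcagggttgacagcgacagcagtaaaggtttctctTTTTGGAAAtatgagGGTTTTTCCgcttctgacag

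The upstream window of Il1rn held 1 NF-kB match and 1 AP-1 match. The downstream window held 1 NF-kB match at position 31 after the start and C/EBP matches at positions -81, 16 and 17, of which the last pair overlap. RefSeq lists a further start of Il1rn whose window overlaps the downstream one and is not printed. These letters are common. Among 32851 RefSeq promoter windows of this length, 40.7% held the C/EBP letters, 18.5% the NF-kB letters and 7.81% the AP-1 letters, and 8.56% and 8.3% held the response element core and the GAS letters. A match is a description of the letters, and no binding was measured here.

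Il18, the ligand of the other arm, had 16, 13 and 13 in LV replicates 1, 2 and 3, against 13, 14 and 7 in untreated replicates 1, 2 and 3. The groups overlapped, and untreated replicate 3 was the low value. The mean was 14.0 ± 1.73 in LV and 11.3 ± 3.79 in untreated livers (SD, n = 3 each). The fold change was 0.33 ± 0.27 on the log2 scale (SE, adjusted p = 0.548 in limma). Its 95% interval ran from -0.34 to 1.00, so a rise up to 2-fold on the (value + 1) scale is within it. Without untreated replicate 3 the fold change was 0.04 (adjusted p = 0.887). In the reference annotation Il18 shares 355 bases with Bco2, a carotenoid-cleaving enzyme on the opposite strand. Whether reads were counted by strand is not stated, so reads of the overlap cannot be told apart. Tex12, also on the opposite strand, shares 4507 bases with Il18 and was not among the rows. Bco2 had 9, 11 and 14 in the LV livers, against 13, 13 and 12 in the untreated ones.

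Il18bp, the soluble inhibitor of interleukin-18, rose. It had 23, 24 and 16 in LV replicates 1, 2 and 3, against 10, 9 and 7 in the untreated libraries. All LV values exceeded all untreated values, and LV replicate 3 was again the lowest of its group. The mean was 21 ± 4.36 in LV and 8.67 ± 1.53 in untreated livers (SD, n = 3 each), a ratio of means of 2.42. The fold change was 1.18 ± 0.20 on the log2 scale (SE, 95% interval 0.67 to 1.68), with an adjusted p of 0.039 in limma. Of all tested genes, 3.21% had a fold change as high or higher. The call of Il18bp ended when any 1 library other than LV replicate 3 was left out. The adjusted p was then 0.153 without LV replicate 1, 0.159 without LV replicate 2, and 0.104, 0.112 and 0.124 without untreated replicates 1, 2 and 3. It was 0.0299 without LV replicate 3. Il18bp shares 80 bases with Numa1, a spindle protein on the opposite strand, which had 14, 17 and 20 in the LV livers, against 21, 20 and 18 in the untreated ones (log2 fold change -0.21).

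The promoters of Il18 and Il18bp are set side by side because the ligand and its inhibitor differed in whether they were called. The sequences follow the same rules and marks as above.
Il18bp, chr7:102018183-102018482, minus strand: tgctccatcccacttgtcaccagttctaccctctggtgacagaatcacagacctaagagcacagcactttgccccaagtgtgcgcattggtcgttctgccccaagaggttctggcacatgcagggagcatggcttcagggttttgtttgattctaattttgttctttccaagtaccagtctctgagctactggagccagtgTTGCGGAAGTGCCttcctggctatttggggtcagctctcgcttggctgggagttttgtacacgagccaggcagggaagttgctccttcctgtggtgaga
Il18, chr9:50554450-50554749, plus strand: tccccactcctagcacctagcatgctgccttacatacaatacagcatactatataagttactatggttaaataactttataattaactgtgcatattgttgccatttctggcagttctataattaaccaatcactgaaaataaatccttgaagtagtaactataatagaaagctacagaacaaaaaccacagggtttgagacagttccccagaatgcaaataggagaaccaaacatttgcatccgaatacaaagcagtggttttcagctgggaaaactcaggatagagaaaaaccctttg

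The Il18bp window held the C/EBP letters at position -49, read on both strands, and the NF-kB letters on the opposite strand at position -45, which overlap. The Il18 window held none of these 5 motifs. A sixth motif, the box with the letters TATAAA, is not marked by capitals. It was found on the opposite strand at position -175 of the Il18 window and in none of the other windows printed, and 13.6% of the RefSeq windows held it. No match says only that these letters are absent from this window.

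In the pair of libraries set apart by male-biased genes, LV replicate 3 and untreated replicate 2, the values were 8 and 1 for Il1rn, 23 and 14 for Il1r1, 13 and 14 for Il18, and 16 and 9 for Il18bp. With 1 library a group, this pair gives no test. Without them, the other 4 libraries gave log2 fold changes of 3.49 for Il1rn, 1.97 for Il1r1, 0.54 for Il18 and 1.38 for Il18bp. None of these was called in limma, with adjusted p values of 0.125, 0.12, 0.479 and 0.0979, and each was larger than the value from all 6 libraries.

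The level of each antagonist was also set against its partner in the same liver, as the log2 ratio of (value + 1). The ratio of Il18bp to Il18 was 0.50, 0.84 and 0.28 in LV replicates 1, 2 and 3, against -0.35, -0.58 and 0.0 in the untreated libraries. The groups did not overlap, and the inhibitor exceeded its ligand in each LV liver and in no untreated liver. The mean ratio was 0.54 ± 0.28 in LV and -0.31 ± 0.29 in untreated livers (SD, n = 3 each), a difference of 0.85. The ratio of Il1rn to Il1r1 was 0.52, -1.06 and -1.42 in LV replicates 1, 2 and 3, against -2.0, -2.91 and -1.58 in the untreated libraries. LV replicate 3 and untreated replicate 3 lay close together, and Il1rn exceeded Il1r1 in LV replicate 1 alone. The mean was -0.65 ± 1.03 in LV and -2.16 ± 0.68 in untreated livers, a difference of 1.51. Without LV replicate 1 this difference was 0.92. For each ratio the two-sided exact permutation test gave p = 0.1, the smallest that 3 against 3 libraries can give. These ratios compare transcript levels between genes on a scale that appears to be per length, and protein was not measured.

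**Figure D3:**
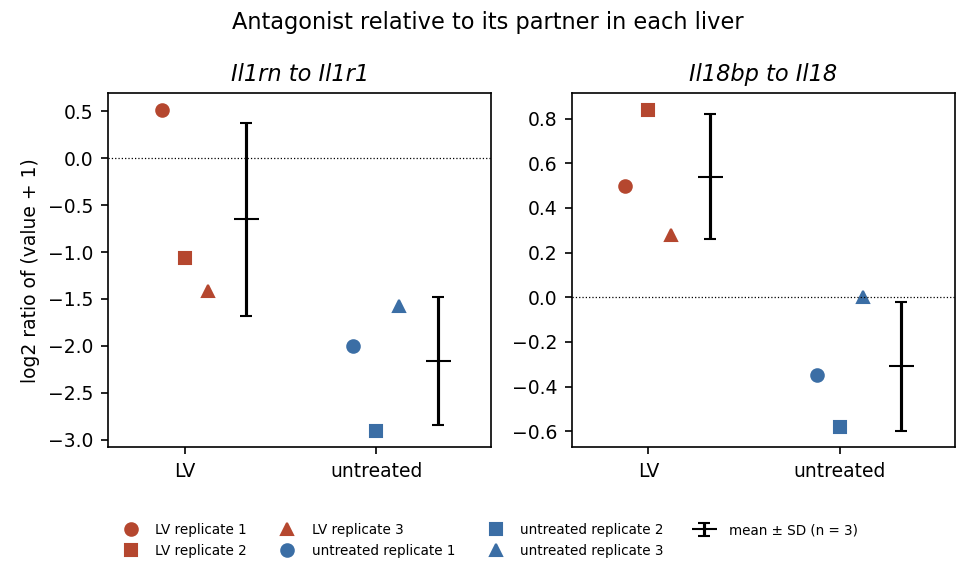
log2 ratio of (value + 1) for Il1rn to Il1r1 and for Il18bp to Il18 in each LV and untreated liver, with mean and SD of 3 libraries; the dotted line at 0 marks equal values. The Il18bp to Il18 ratio lies above 0 in the LV libraries and at or below 0 in the untreated ones.

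By level, the order in LV livers was Il1r1, Il1rn, Il18bp and Il18, with means of 33.0, 24.7, 21 and 14.0. Il1rn overlapped both of its neighbours in this order, and the ranges of Il18bp and Il18 met at 16. In untreated livers the order was Il18, Il1r1, Il18bp and Il1rn, with means of 11.3, 10.7, 8.67 and 1.67. The ranges of the first 3 overlapped, and Il1rn lay below all of them. The spread between libraries also differed between the genes. In LV livers the coefficient of variation was 76.1% for Il1rn, 33.7% for Il1r1, 20.8% for Il18bp and 12.4% for Il18.

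The wider pathway was described with lists of ligands, antagonists and decoys, receptor chains, adaptors and kinases, and inflammasome genes. Of 60 listed genes 29 were in the table, and of these 3 were called higher, Il18bp, Myd88 and Gsdmd, and 0 lower. At an unadjusted p under 0.05, 8 of the 29 were higher and 0 lower, where 9.21% of all tested genes were higher and 10.3% lower. The members Il1rn, Il1r1 and Il18bp are among these 8. Without the 4 members, 2 of 25 pathway genes were called higher, where 3.76% of all tested genes were. The median fold change of the 29, members included, was 0.17 on the log2 scale, and that of all tested genes -0.07. Myd88, the adaptor that links the receptors to the Irak kinases, had 47, 33 and 24 in the LV livers, against 8, 9 and 8 in the untreated ones (log2 fold change 1.88, limma adjusted p = 0.0159). Gsdmd, the pore-forming protein through which mature interleukin-1 and interleukin-18 leave a cell, had 30, 31 and 30 in the LV livers, against 18, 17 and 12 in the untreated ones (0.93, adjusted p = 0.0391). In each, the groups did not overlap. The count of 3 became 5 when values were scaled by upper quartile, by median of ratios or by total, or with a mean of at least 5, where Il1rn and Il1r1 joined the same 3 genes. It was 0 when LV replicate 2, untreated replicate 1, untreated replicate 2 or the pair set apart was left out, and 1 without LV replicate 1 or untreated replicate 3.

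Other components did not pass. Il1rap, the accessory receptor chain, had 72, 86 and 126 in the LV livers, against 96, 128 and 126 in the untreated ones, with a log2 fold change of -0.33 (adjusted p = 0.503). Sigirr, an inhibitory receptor of the family, had 16, 12 and 9 in the LV livers, against 18, 11 and 15 in the untreated ones (-0.24, adjusted p = 0.644). Of 18 adaptors and kinases in the table, 17 did not pass, among them Irak4 at 0.30, Tirap, an adaptor of Toll-like receptors, at 0.52 and Peli1, a ubiquitin ligase, at 0.42. In the inflammasome list Casp8, a protease of cell death, had a fold change of 0.53, Nlrp6, a sensor, of 0.32 and Txnip, a thioredoxin-binding protein, of -0.64, none of them called. Il1a, Il1b, Il33, the decoy receptor Il1r2, the interleukin-18 receptor chains Il18r1 and Il18rap, and Casp1, Pycard and Nlrp3 were not among the rows and were not analysed here.

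**Figure D4:**
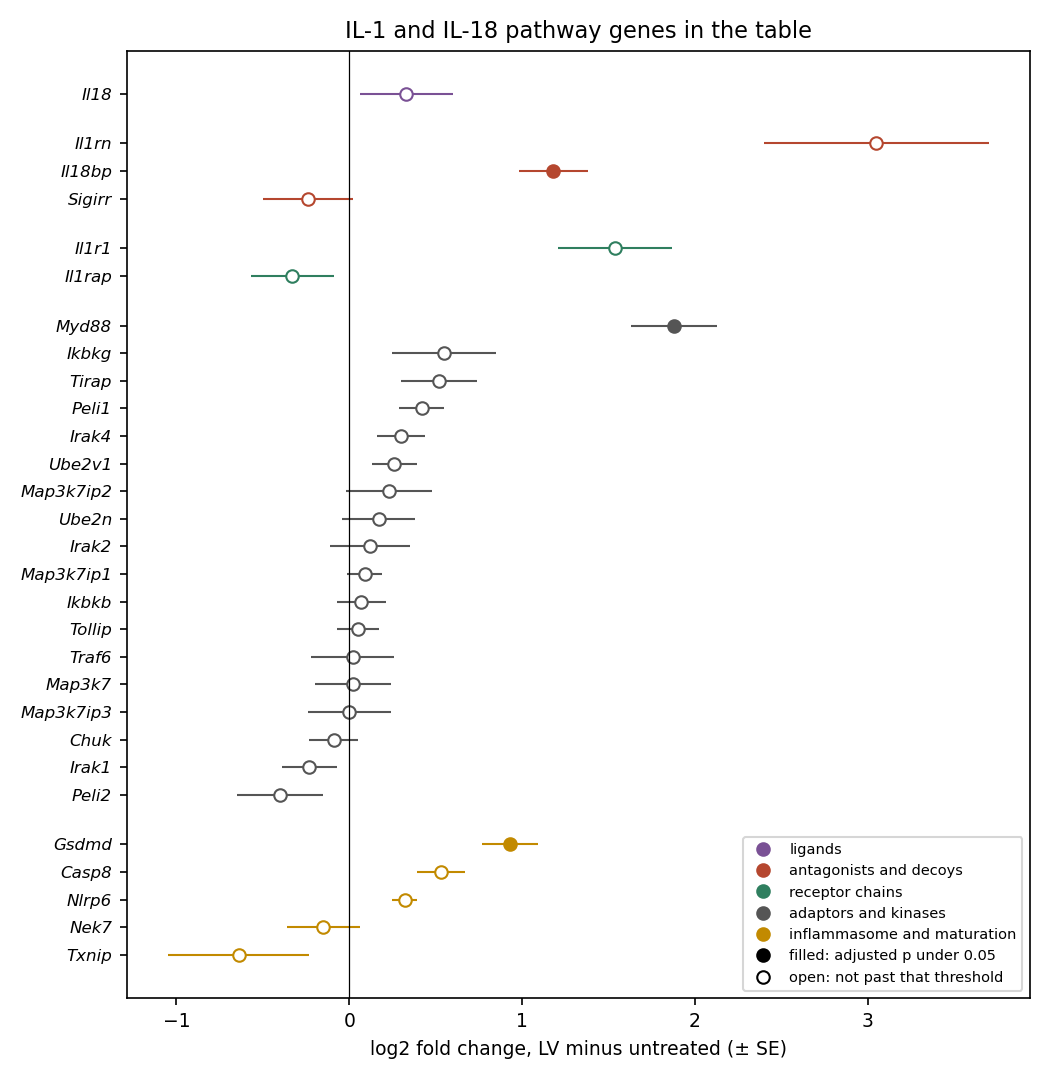
log2 fold change (LV minus untreated, points with SE bars) of the 29 pathway genes in the table, grouped by role; filled points have a limma adjusted p under 0.05. The filled points are Il18bp at 1.18, Myd88 at 1.88 and Gsdmd at 0.93, and Il1rn, at 3.05, has the widest bar.

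Genes known to respond to interleukin-1 in liver, most of which also respond to other inflammatory signals, rose in part. Of 20 that the table held, 14 were called higher and 0 lower, where 3.76% and 0.87% of all tested genes were. The median log2 fold change of the 20 was 1.84. The list was chosen with earlier results of these data known. Of its 24 genes, 4 were not among the rows. Ccl2 was at 0 and Tnfaip3 at 1 in every untreated library. Such genes may be listed only through their LV values, as for Il1rn, which would favour the count. Saa3, a serum amyloid A gene, had 447, 198 and 105 in the LV livers, against 8, 9 and 5 in the untreated ones. Lcn2, an iron-scavenging lipocalin, had 1257, 646 and 144 in the LV livers, against 16, 3 and 16 in the untreated ones. Steap4, a metalloreductase, had 1325, 681 and 374 in the LV livers, against 33, 48 and 36 in the untreated ones. In these genes, as in Il1rn, LV replicate 1 was the highest and LV replicate 3 the lowest LV library, and no LV value overlapped the untreated ones. LV replicate 3 was the lowest LV library in 11 of the 14 called genes, and in 229 of all 315 genes called higher (72.7%). Cxcl1, a neutrophil chemokine, differed, with 34, 25 and 54 in the LV livers, against 4, 3 and 5 in the untreated ones. Among those not called, Nfkbia, an NF-kB inhibitor, had a fold change of -0.13 and Cebpb of -0.04. The other called genes of the list were Saa1, Saa2, Nfkbiz, Ccl2, Icam1, Vcam1, Tnfaip3, Orm2, Lbp and Hp. The count of 14 fell to 8 without the pair set apart. It was 7 without LV replicate 1 or untreated replicate 1, 5 without LV replicate 2 and 6 without untreated replicate 3.

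On the interleukin-18 and interferon gamma axis, 10 of 18 listed genes were in the table. Of these 6 were called higher and 0 lower, where 3.76% and 0.87% of all tested genes were. Fold changes were positive in 8 of the 10 and negative in 2 (median log2 fold change 1.14). This list too was chosen with earlier results of these data known. Cxcl9, at 2 to 3 in untreated livers, and Cxcl10, at 2 to 4, may also be listed only through their LV values. Irf1, a transcription factor induced by interferons, had 92, 81 and 77 in the LV livers, against 21, 17 and 15 in the untreated ones (log2 fold change 2.18, limma adjusted p = 0.00178). Jak2, a cytoplasmic kinase bound to cytokine receptors, Irf8, Cxcl9 and Cxcl10 were also called, with fold changes of 0.70, 1.57, 3.40 and 6.95. Type I interferon raises several of these genes as well, and Ifng and the Il12 genes were not among the rows. Without LV replicate 2, 3 were called.

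The genes whose pattern was most like each member were taken as the 3 with the highest Pearson correlation of log2(value + 1) over the 6 libraries, out of 6771 genes with a mean of at least 5. The 6 libraries share the group difference, and a maximum over so many genes is high by selection, so these are descriptions with no test. Nearest to Il1rn were Orm2, an acute-phase orosomucoid (r = 0.995), Psmb10, an immunoproteasome subunit (0.994), and Lass6, a ceramide synthase (0.989). Orm2 had 756, 431 and 109 in the LV livers, against 12, 11 and 26 in the untreated ones, so untreated replicate 3 was the highest untreated library. It was also the highest for Il1rn, but there the untreated values were only 1, 1 and 3 after rounding. Nearest to Il1r1 were Pex26, a peroxisomal protein, Clp1, an RNA kinase, and Sepw1, a selenoprotein (0.996, 0.991 and 0.989). Nearest to Il18bp were Bst2, which tethers virions (0.998), Birc3, an inhibitor of apoptosis (0.994), and Clic4, a chloride channel family protein (0.992). Bst2 had 429, 426 and 305 in the LV livers, against 206, 202 and 156 in the untreated ones. Nearest to Il18 were Lars, a transfer RNA synthetase, AI931714 and Ctnnb1, which encodes beta-catenin (0.994, 0.992 and 0.987). Among the members themselves r was 0.89 between Il1rn and Il18bp, 0.89 between Il1r1 and Il18bp, 0.88 between Il1rn and Il1r1, and 0.36 to 0.65 for the pairs with Il18.

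No marker of another cell type was called. Among all tested genes, 58.1% had a negative fold change. Of 11 Kupffer cell markers 10 were in the table, and their summed value was 135 to 315 in LV and 248 to 368 in untreated livers, with 8 of 10 fold changes negative and 0 called in limma (at an unadjusted p under 0.05, 0 were higher and 1 lower, where all tested genes gave 9.21% and 10.3%). Timd4 was not among the rows. All 11 sinusoidal endothelial markers were present. Their sum was 113 to 201 in LV and 204 to 227 in untreated livers, and it gives most weight to markers of high value. Clec4g, one of these, had 11, 43 and 33 in the LV livers, against 55, 54 and 58 in the untreated ones. Lyve1 went the other way, with 10, 5 and 5 in the LV livers, against 3, 3 and 2 in the untreated ones. Of the 11 fold changes 8 were negative, and 0 of these markers were called. At an unadjusted p under 0.05, 1 was higher and 0 lower, which is near those shares. The lowest sum of the Kupffer and of the endothelial list was that of LV replicate 1. Of 12 neutrophil and monocyte markers, 1 was in the table, Lyz2, a lysozyme, at 86, 101 and 66 in the LV livers, against 64, 50 and 51 in the untreated ones (log2 fold change 0.60, limma adjusted p = 0.174). S100a8, S100a9, Ly6g and Csf3r were not among the rows, nor was any of 12 T and NK cell markers. Of 10 stellate cell markers 9 were in the table, with a sum of 139 to 164 in LV and 135 to 174 in untreated livers. No marker of these lists was at 0 in any library. The part of cell composition in the differences of Il1rn, Il1r1 and Il18bp was not tested.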

How the data were processed

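The deposited table holds 1 value per gene and library for 3 LV and 3 untreated livers. No header or label names the unit, and the deposited whole numbers are used as a score that the authors seem to have scaled and rounded. For genes with a mean of 2 to 5, variance over mean averaged 0.246 in LV and 0.238 in untreated libraries, under the value of 1 that read counts give at the least. Count models were therefore not used. Per the submitters' processing notes the build was mm9; no source used here gives the aligner, annotation or counting.

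Columns were matched to samples by description. After removal of 4 of 8390 genes that reached 1 in fewer than 3 libraries, log2(value + 1) was modelled on group in limma 3.58.1 (R 4.3.3) with a variance trend; p-values are two-sided and Benjamini-Hochberg adjusted over 8386 genes. The ratios were tested with scipy 1.17.1. The members, gene lists, motifs and the rule for named genes (the members, called genes of each list or the smallest p up to 4, and the 3 nearest patterns) were chosen with earlier results of these data known. Of 168 list entries, 95 matched by symbol and 4 by an older symbol, 1 by a synonym in RefSeq (GRCm38.p6), and 68 were not among the rows. The values of 1 gene of these lists are not reported here.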

Additional observations from a re-analysis of the deposited data

How the results depend on the processing

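Fold changes kept their sign under every alternative run for the 4 genes, and Il18 was called under none of 17. Il18bp was called under 10 of 17, Il1rn under 5 and Il1r1 under 4. Il1rn became called at 3.05 with a mean of at least 5, 3.07 with a common total, 3.08 with median of ratios and 3.06 with upper quartile, and Il1r1 at 1.54, 1.56, 1.59 and 1.55 under the same settings. Leaving out single libraries gave 2.48 to 3.66 for Il1rn and 1.05 to 1.35 for Il18bp. Il18bp lost its call at 1.38 without LV replicate 3 and untreated replicate 2 together, and at 1.07 with rounding taken against the difference (adjusted p = 0.0506), a setting added after seeing the data, as were all settings of the 2 response lists. The cause of these changes was not tested. Leaving out single libraries gave 119 to 313 genes called higher, against 315, and 10 to 116 lower, against 73. Without the pair together 136 were lower. Pathway genes called higher numbered 5 under the 4 settings above, 0 without the pair, and 0 to 4 with single libraries left out. The interleukin-1 responsive count was 8 without the pair and 5 to 12 with single libraries left out, and the interleukin-18 axis count 3 to 6.

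With the replicate number as a block, 145 genes were higher, 11 lower, 1 of the pathway, Il18bp, and 7 of the interleukin-1 responsive list. Adjusted p was 0.046 for Il18bp, 0.222 for Il1rn and 0.124 for Il1r1. Same-numbered libraries correlated in their deviations from the group means at 0.278, -0.47 and -0.337. LV replicate 3 and untreated replicate 2 correlated at 0.612, a pattern that could hide a weaker pairing by number. Whether the numbers pair the samples is therefore unknown. Read depth is unknown, and rounding limits the precision of low values such as untreated Il1rn.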
